A study of Mus musculus with 9 samples.

Results

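The 10 genes of bile acid synthesis, conjugation and transport were followed in the livers of mice conceived naturally or after embryo transfer. The 10 genes were chosen by symbol from knowledge of the pathway, with earlier results of these data known. All 10 were found among the 55335 genes of the expression table. They were Cyp7a1, Cyp8b1, Cyp27a1, Cyp7b1, Slc27a5, Baat, Slc10a1, Abcb11, Nr1h4 and Nr0b2. Liver RNA was sequenced from 9 male B6D2F2 mice aged 20 weeks, which were fed chow and fasted for 4 h. The NC-chow group (mice 1, 5 and 6) was conceived by natural mating. The IVF-chow group (mice 2, 3 and 4) came from embryos fertilized in vitro and transferred fresh at the 2-cell stage. The FET-chow group (mice 2, 3 and 4) came from such embryos that were slowly frozen and thawed before the transfer. The gametes of the transferred embryos came from B6D2F1/J hybrids, and mice of a second hybrid generation such as B6D2F2 differ genetically from each other. The foster mothers of both transfer groups were ICR females, so the foster strain and the embryo procedures cannot be told apart in a comparison with NC-chow mice. The litter of each mouse is not given, and the p-values measure the spread between these mice.

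Bile acids are made from cholesterol in hepatocytes. In the classical route Cyp7a1 adds the first hydroxyl group, the rate-limiting step, and Cyp8b1 adds the hydroxyl group that makes cholic acid. The alternative route starts with Cyp27a1, a mitochondrial enzyme that oxidizes the sterol side chain, and goes on with Cyp7b1. Slc27a5 then activates the bile acid with coenzyme A and Baat joins it to taurine or glycine. Slc10a1 takes conjugated bile acids up from portal blood, and Abcb11 pumps them into the canaliculus. Nr1h4 encodes the bile acid receptor FXR, and its target gene Nr0b2 encodes the repressor SHP, which acts on Cyp7a1 and Cyp8b1.

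None of the 10 genes changed in any of the 3 comparisons at an adjusted p-value under 0.05 in limma, a linear model fitted to 6755 genes. The largest differences between FET-chow and NC-chow mice were those of Cyp27a1, Cyp8b1 and Slc10a1, with log2 fold changes of -2.36, -2.14 and -2.02. For these 3 genes and Abcb11, every FET-chow value lay below every NC-chow value, 4 of 10 where 17.1% of all genes tested did so. In IVF-chow against NC-chow mice the largest were those of Abcb11 (-2.50) and Nr0b2 (-2.08), which lay lower in every IVF-chow mouse than in every NC-chow mouse, 2 of 10 where 5.46% of all genes did so. Without IVF-chow mouse 4 the value of Abcb11 was -1.4, smaller than those of Nr0b2 (-2.44), Cyp27a1 (-2.41), Baat (-2.08), Slc10a1 (-2.04) and Cyp8b1 (-1.56). The values of Cyp7a1, Cyp7b1, Slc27a5, Baat and Nr1h4 overlapped between the groups in all 3 comparisons on deposited FPKM. Levels are given as FPKM, the fragments of a gene scaled to its length and to the mapped fragments of its library, so levels of different genes may be compared.

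The libraries differed in size and composition. The spacing of low values, which come in multiples of 1 fragment, implied that 6550000 to 13180000 fragments were mapped in NC-chow, 3840000 to 8320000 in IVF-chow and 1990000 to 2890000 in FET-chow libraries. Nuclear protein-coding genes took 10.1% to 18.1% of the summed FPKM in NC-chow, 4.4% to 29.3% in IVF-chow and 4.4% to 13.7% in FET-chow mice. Protein-coding genes above 0 FPKM numbered 10275 to 14085 in NC-chow, 11602 to 13588 in IVF-chow and 6895 to 10561 in FET-chow mice. A set of 3 abundant noncoding RNAs, Gm23935 among them and chosen after their values were seen, took 3.5% to 26.5%, 18.1% to 61.9% and 29.0% to 41.8% of the summed FPKM in the same order. Their share was thus higher in every FET-chow than in every NC-chow mouse. The levels of the 10 genes are therefore also described as rescaled FPKM, for which these protein-coding genes were scaled to the same sum in every mouse. The numbers that end the library labels run from 67 to 76 for NC-chow mouse 1 and both transfer groups and are higher for NC-chow mice 5 and 6, and what they stand for is not stated. The 8 hepatocyte markers together reached 10000 to 19200 FPKM in NC-chow, 3330 to 30400 in IVF-chow and 4350 to 15100 in FET-chow mice, with Alb (albumin) the highest. The summed levels of the 7 cholangiocyte markers were 8.36 to 17.2, 1.55 to 10.3 and 1.66 to 10.3 FPKM in the same order, with Spp1 the highest and Cftr listed at 0 in every mouse. For the 7 Kupffer cell markers, led by Clec4f, they were 9.38 to 27.2, 4.2 to 31.6 and 6.84 to 42.0 FPKM. The 6 endothelial markers, led by Clec4g, gave 6.92 to 12.2, 2.62 to 8.02 and 5.59 to 6.91 FPKM. The 6 stellate markers, led by Dcn, gave 9.0 to 11.1, 4.63 to 22.5 and 6.03 to 16.3 FPKM. The 5 lymphocyte markers, led by Cd3e, stayed at or below 1.33 FPKM in every mouse. The 5 erythroid markers, led by Hba-a1, reached 335 to 850, 78.0 to 388 and 177 to 591 FPKM. The 6 pancreas and gut markers, led by Fabp2, gave 20.7 to 79.7, 5.43 to 54.2 and 3.27 to 25.1 FPKM. On rescaled FPKM the hepatocyte, endothelial, stellate and pancreas and gut sums overlapped between all 3 groups. The rescaled Kupffer cell sums were 11.5 to 19.9 in NC-chow, 12.3 to 17.8 in IVF-chow and 17.3 to 52.8 in FET-chow mice. The rescaled erythroid sums were 278 to 1040, 194 to 259 and 449 to 722 in the same order, those of cholangiocytes 7.89 to 14.3, 4.53 to 5.15 and 4.21 to 12.2, and those of lymphocytes 0.568 to 1.03, 0.058 to 0.369 and 0 to 1.18. The IVF-chow sums thus lay wholly below the NC-chow sums for the last 3 lists. Taken singly, 2 of 5 tested erythroid and 1 of 2 tested cholangiocyte markers (Spp1) did so, against 11.3% of all genes tested. Of the 5 lymphocyte markers, 0 reached a mean of 1 FPKM, and their sums rest on few fragments. The part of library composition and of other cell types in the results was not tested. In whole liver, fewer cells of a type and less RNA per cell cannot be told apart.

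Averaged over the 9 mice, Cyp27a1 stood highest with 52.0 FPKM. It was followed by Nr1h4 (38.5), Baat (37.5) and Slc27a5 (36.0), whose levels crossed from mouse to mouse. Abcb11 had a mean of 27.6 FPKM, Slc10a1 of 19.5, Cyp7b1 of 12.1 and Cyp8b1 of 7.8. Nr0b2 (5.46) and Cyp7a1 (4.03) had the lowest means, but the order differed between mice. Cyp8b1 lay below Nr0b2 in NC-chow mouse 1 and in FET-chow mice 3 and 4, and Abcb11 was the lowest gene in IVF-chow mouse 4. Cyp27a1 was the highest of the 10 genes in 3 of 9 mice, all of them NC-chow, Nr1h4 in 3 mice, Baat in 2 and Slc27a5 in 1. The 10 genes together took 0.206% to 0.302% of the nuclear protein-coding FPKM in NC-chow, 0.158% to 0.174% in IVF-chow and 0.149% to 0.214% in FET-chow mice. The IVF-chow shares thus lay wholly below the NC-chow shares, and FET-chow mouse 2 was the only FET-chow mouse within the NC-chow range.

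**Figure D1:**
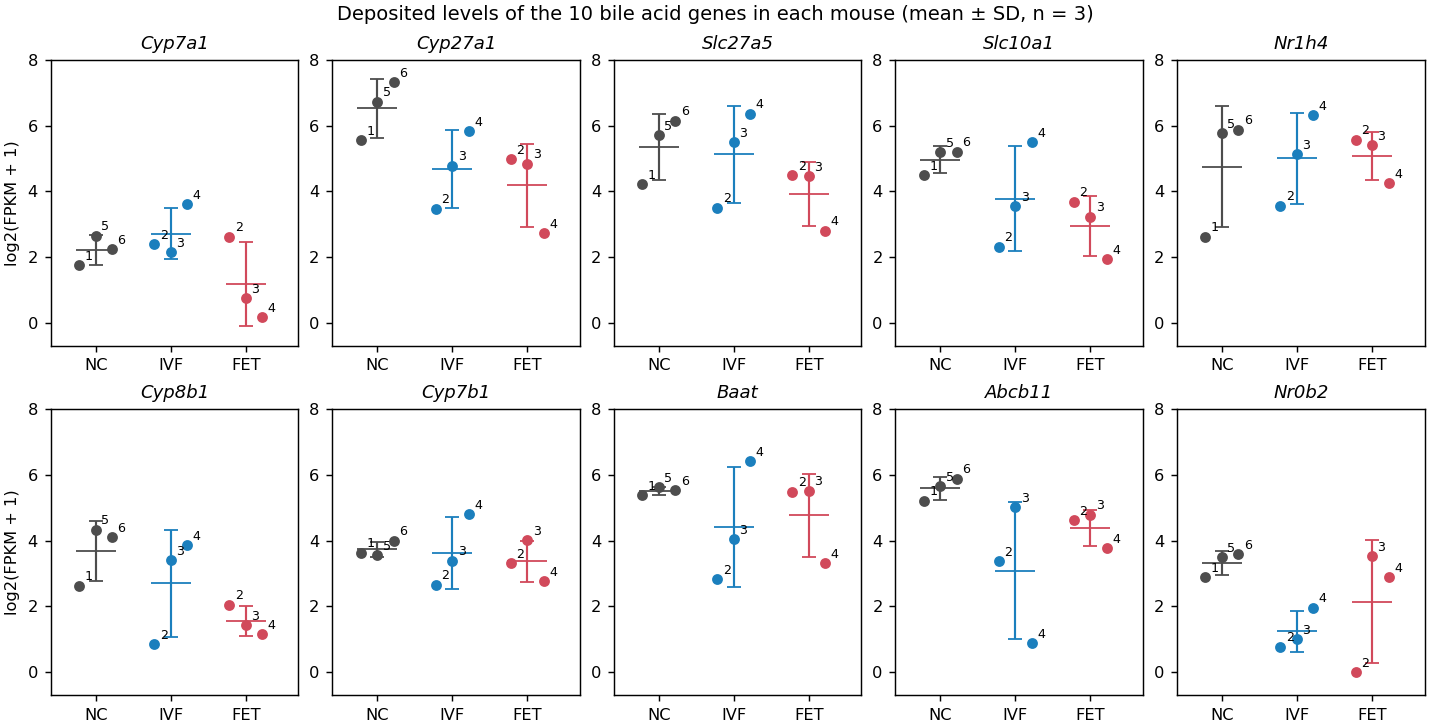
Deposited levels of the 10 genes, with log2(FPKM + 1) on the y axis and the 3 groups on the x axis. Each point is 1 mouse, labelled with its number, and the bars are the mean ± SD of 3 mice. Points of IVF-chow mouse 2 and FET-chow mouse 4 lie low for most genes, and the FET-chow points of Cyp8b1, Cyp27a1, Slc10a1 and Abcb11 all lie below the NC-chow points.

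Cyp7a1 (ENSMUSG00000028240), on chromosome 4 from 6265612 to 6275633 of build GRCm38, had 2.38, 5.28 and 3.75 FPKM in NC-chow mice 1, 5 and 6. In IVF-chow mice 2, 3 and 4 it had 4.23, 3.45 and 11.2 FPKM. In FET-chow mice 2, 3 and 4 it had 5.18, 0.681 and 0.124 FPKM. FET-chow mouse 2 therefore lay within the NC-chow range and the other 2 FET-chow mice below it. The lowest value rests on about 1 fragment, under the 0.249 FPKM that 3 fragments would give in that library. The log2 fold change, given here and for the other genes with its standard error, was -1.04 ± 0.69 in FET-chow against NC-chow mice (adjusted p = 0.568 in limma). It was -1.76 without FET-chow mouse 2, -0.53 without FET-chow mouse 4 and -1.93 with a pseudocount of 0.1 in place of 1. For IVF-chow against NC-chow mice it was 0.5 ± 0.69 (adjusted p = 1.0 in limma), and 0.05 without IVF-chow mouse 4. The rescaled values against NC-chow mice were -0.77 ± 0.65 in FET-chow and 0.79 ± 0.65 in IVF-chow mice. FET-chow mice differed from IVF-chow mice by -1.54 ± 0.69 (95% interval -2.93 to -0.14, unadjusted p = 0.0317, adjusted p = 1.0 in limma), and by -2.52 with a pseudocount of 0.1. Cyp7a1 was the only one of the 10 genes to reach an unadjusted p under 0.05 in that comparison on deposited FPKM, in which 2.95% of all genes tested did so with lower values. It no longer did without IVF-chow mouse 4, without FET-chow mouse 3 or 4, with no filter on low values, with only these 2 groups in the fit or with a replicate block.

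Cyp8b1 (ENSMUSG00000050445), a gene of 1 transcript on chromosome 9 from 121914356 to 121916305, had 5.18, 19.0 and 16.1 FPKM in NC-chow mice 1, 5 and 6. It had 0.797, 9.53 and 13.5 FPKM in the IVF-chow mice and 3.13, 1.67 and 1.23 FPKM in the FET-chow mice. All 3 FET-chow values lay below all NC-chow values, while the IVF-chow mice ranged from below the FET-chow values to within the NC-chow range. The FET-chow values rest on about 12, 9 and 7 fragments, against about 66 to 438 in NC-chow mice. The log2 fold change in FET-chow against NC-chow mice was -2.14 ± 0.79 (95% interval -3.73 to -0.56), with an adjusted p of 0.258 in limma. IVF-chow mice differed from NC-chow mice by -0.98 ± 0.79, and FET-chow from IVF-chow mice by -1.16 ± 0.79. Without IVF-chow mouse 2 these values were -0.06 and -2.09, and without IVF-chow mouse 4 they were -1.56 and -0.58. On rescaled FPKM it was -1.66 between FET-chow and NC-chow mice (SE 0.51, adjusted p = 0.195 in limma), and the groups again did not overlap. On deposited FPKM it was -1.09 with NC-chow mouse 1 as the only NC-chow mouse.

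Cyp27a1 (ENSMUSG00000026170), the first enzyme of the alternative route, on chromosome 1 from 74713574 to 74737892, had 46.2, 105 and 159.6 FPKM in NC-chow mice 1, 5 and 6. It had 10.1, 26.5 and 56.0 FPKM in the IVF-chow mice and 30.5, 27.8 and 5.61 FPKM in the FET-chow mice. On this scale FET-chow values lay below all NC-chow values, and IVF-chow mouse 4 lay above NC-chow mouse 1. The log2 fold change was -2.36 ± 1.03 in FET-chow (95% interval -4.44 to -0.27, adjusted p = 0.351 in limma) against NC-chow mice, with -1.85 ± 1.03 for IVF-chow mice (adjusted p = 1.0 in limma). After rescaling, the NC-chow mice had 87.1 ± 30.2 FPKM (SD, n = 3) with 56.6 in the lowest, the IVF-chow mice 29.6, 27.8 and 27.9 and the FET-chow mice 38.4, 24.7 and 14.2. Both transfer groups then lay wholly below the NC-chow group. The rescaled log2 fold changes were -1.76 ± 0.42 for FET-chow (adjusted p = 0.116 in limma) and -1.52 ± 0.42 for IVF-chow (adjusted p = 0.625 in limma) against NC-chow mice. Against NC-chow mouse 1 alone, on deposited FPKM, they were -1.38 and -0.87, and leaving out 1 mouse at a time gave -2.85 to -1.63 and -2.41 to -1.23.

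Cyp7b1 (ENSMUSG00000039519), on chromosome 3 from 18071950 to 18243338, overlapped between the groups. It had 11.4, 10.8 and 15 FPKM in NC-chow, 5.3, 9.42 and 26.9 in IVF-chow and 8.92, 15.1 and 5.82 in FET-chow mice. On the rescaled values the 9 mice lay between 8.97 and 15.5 FPKM, with 11.3 ± 2.5 FPKM (SD, n = 3) in NC-chow, 12.9 ± 2.84 in IVF-chow and 13.1 ± 1.78 in FET-chow mice. The rescaled log2 fold change was 0.21 (95% interval -0.49 to 0.92) in FET-chow and 0.18 (-0.53 to 0.88) in IVF-chow against NC-chow mice. On deposited FPKM both had the other sign, -0.37 and -0.12. A small nuclear RNA gene inside the span of Cyp7b1, Gm23686, was listed at 0 in every mouse.

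Slc27a5 (ENSMUSG00000030382), the bile acid CoA ligase on chromosome 7 from 12988346 to 12998192, had 17.7, 51.3 and 70.0 FPKM in NC-chow mice. It had 10.4, 44.3 and 81.6 FPKM in IVF-chow and 21.5, 21.1 and 5.98 FPKM in FET-chow mice. NC-chow mouse 1 lay within the FET-chow range. On the log2 scale FET-chow mice differed by -1.44 ± 1.01 from NC-chow mice (adjusted p = 0.598 in limma) and by -1.21 ± 1.01 from IVF-chow mice. Leaving out 1 mouse at a time gave -2.01 (without NC-chow mouse 1) to -0.88 (without FET-chow mouse 4) for the first and -2.01 (without IVF-chow mouse 2) to -0.58 (without IVF-chow mouse 4) for the second. After rescaling, the FET-chow mice (27.0, 18.8 and 15.1 FPKM) lay below all IVF-chow mice (30.4, 46.6 and 40.7 FPKM), with a difference of -0.93 ± 0.40 on the log2 scale (adjusted p = 0.523 in limma), and the difference from NC-chow mice was -0.84 ± 0.40 (adjusted p = 0.322 in limma). Slc27a5 was 1 of 10 genes to lie wholly lower in that rescaled comparison, against 6.01% of all genes tested.

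Baat (ENSMUSG00000039653), the amino acid transferase on chromosome 4 from 49489422 to 49506557, had 40.8, 48.5 and 45.0 FPKM in NC-chow mice. Its levels were 6.08, 15.4 and 84.4 FPKM in IVF-chow mice and 43.8, 44.9 and 8.9 FPKM in FET-chow mice. FET-chow mice 2 and 3 thus lay among the NC-chow mice, and IVF-chow mouse 4 above all others. Log2 fold changes of Baat were -0.74 ± 1.03 in FET-chow (adjusted p = 0.821 in limma) against NC-chow mice, with -1.09 ± 1.03 for IVF-chow mice (adjusted p = 1.0 in limma). The rescaled values were -0.14 ± 0.46 and -0.79 ± 0.46. On deposited FPKM the FET-chow value was -0.01 without FET-chow mouse 4, and the IVF-chow value was -0.29 without IVF-chow mouse 2 and -2.08 without IVF-chow mouse 4.

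Slc10a1 (ENSMUSG00000021135), the uptake transporter NTCP on chromosome 12 from 80953183 to 80968705, had 21.7, 35.7 and 35.9 FPKM in NC-chow mice. It had 3.97, 10.7 and 44.0 FPKM in IVF-chow and 11.9, 8.38 and 2.83 FPKM in FET-chow mice. The FET-chow values all lay below the NC-chow values, and IVF-chow mouse 4 lay above them. Slc10a1 differed on the log2 scale by -2.02 ± 0.93 in FET-chow (95% interval -3.88 to -0.15, adjusted p = 0.376 in limma) and by -1.18 ± 0.93 in IVF-chow (adjusted p = 1.0 in limma) against NC-chow mice. The IVF-chow value was -0.45 without IVF-chow mouse 2 and -2.04 without IVF-chow mouse 4. After rescaling the NC-chow mice were close to each other, at 26.5, 29.6 and 26.3 FPKM. The IVF-chow mice then had 11.6, 11.3 and 22 FPKM and the FET-chow mice 15, 7.45 and 7.16 FPKM, so that both groups lay wholly lower. The rescaled log2 fold changes were -1.46 ± 0.38 (adjusted p = 0.145 in limma) for FET-chow and -0.90 ± 0.38 (adjusted p = 0.887 in limma) for IVF-chow against NC-chow mice.

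Abcb11 (ENSMUSG00000027048), the bile salt export pump on chromosome 2 from 69238282 to 69342616, had 36.2, 49.5 and 58.2 FPKM in NC-chow mice. It had 9.3, 31.4 and 0.823 FPKM in IVF-chow and 23.7, 26.5 and 12.6 FPKM in FET-chow mice. Both groups lay below all NC-chow mice on either scale. The value of 0.823 FPKM, about 16 fragments, belongs to IVF-chow mouse 4, the mouse with the highest deposited levels of Cyp7a1, Cyp7b1, Slc27a5, Baat, Slc10a1 and Nr1h4, though the highest for none of these after rescaling. On rescaled FPKM that mouse was at 0.41 and the other 2 IVF-chow mice at 27.3 and 33.0. The log2 fold change was -2.50 ± 0.99 in IVF-chow (adjusted p = 0.848 in limma) and -1.20 ± 0.99 in FET-chow (adjusted p = 0.668 in limma) against NC-chow mice. On rescaled FPKM the values were -1.98 ± 0.98 (unadjusted p = 0.0713, adjusted p = 0.914 in limma) and -0.58 ± 0.98 (adjusted p = 0.793 in limma). On deposited FPKM without IVF-chow mouse 4 the first value was -1.4, and the difference between FET-chow and IVF-chow mice went from 1.31 to 0.2. An antisense gene that overlaps Abcb11, Gm13613, was at or below 0.28 FPKM in every mouse, and whether reads were counted by strand is not given in the sources used here.

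Nr1h4 (ENSMUSG00000047638), the FXR gene on chromosome 10 from 89454234 to 89533585, had 5.15, 53.7 and 58.0 FPKM in NC-chow mice. It had 10.9, 34.1 and 78.6 FPKM in IVF-chow and 46.6, 41.6 and 18.1 FPKM in FET-chow mice. NC-chow mouse 1 was the lowest of all 9 mice, also after rescaling, where it had 6.30 FPKM and the other 8 mice between 32.0 and 58.6 FPKM. Nr1h4 had log2 fold changes of 0.32 ± 1.05 in FET-chow and 0.25 ± 1.05 in IVF-chow against NC-chow mice (adjusted p = 0.931 and 1.0 in limma). On rescaled FPKM they were 0.95 ± 0.63 and 0.58 ± 0.63 (adjusted p = 0.469 and 0.976 in limma). On deposited FPKM without NC-chow mouse 1 both were negative, -0.75 and -0.82.

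Nr0b2 (ENSMUSG00000037583), the SHP gene on chromosome 4 from 133553376 to 133556536, had 6.42, 10.2 and 10.9 FPKM in NC-chow mice. It had 0.706, 0.991 and 2.88 FPKM in IVF-chow and 0, 10.6 and 6.4 FPKM in FET-chow mice. All IVF-chow values lay below all NC-chow values, while FET-chow mice 3 and 4 lay near the NC-chow range. The IVF-chow values rest on about 7, 5 and 13 fragments. In FET-chow mouse 2, the smallest library, a count of 0 allows up to 1.33 FPKM, the level of 3 fragments. The log2 fold change was -2.08 ± 0.75 in IVF-chow (95% interval -3.59 to -0.57, adjusted p = 0.647 in limma) and -1.18 ± 0.75 in FET-chow (adjusted p = 0.542 in limma) against NC-chow mice. On rescaled FPKM the NC-chow mice had 8.12 ± 0.327 (SD, n = 3), the IVF-chow mice 1.52 ± 0.519 and the FET-chow mice 8.53 ± 8.13. The rescaled log2 fold change in IVF-chow mice was -1.88 ± 0.85 (adjusted p = 0.907 in limma), and that in FET-chow mice -0.70 ± 0.85 (adjusted p = 0.713 in limma). Without FET-chow mouse 2 the deposited value for FET-chow against NC-chow mice was -0.11, and with a pseudocount of 0.1 and all mice it was -2.25.

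**Figure D2:**
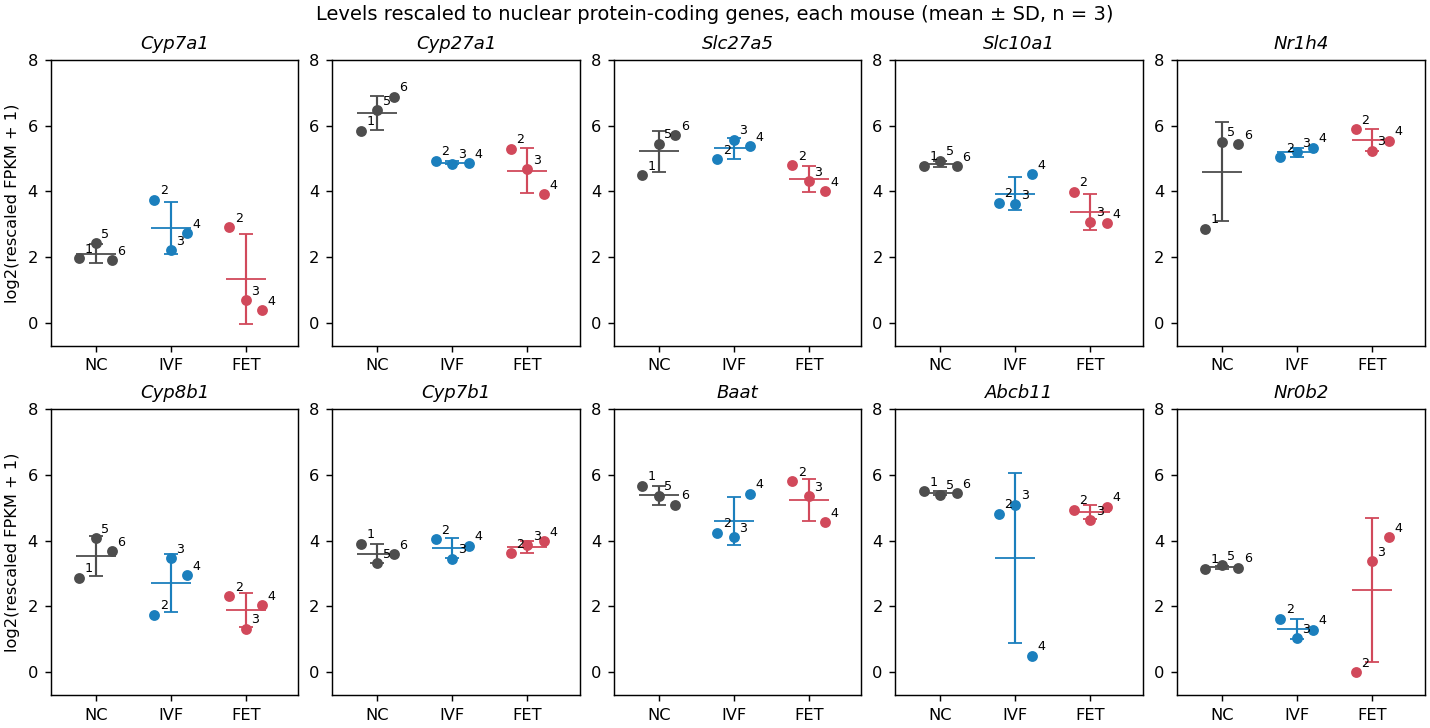
The same 10 genes after rescaling, with log2(rescaled FPKM + 1) on the y axis, 1 numbered point per mouse and the mean ± SD of 3 mice. The groups of Cyp7b1 overlap closely, the 3 NC-chow points of Slc10a1, Abcb11 and Nr0b2 lie together, and single mice stand apart for Abcb11 (IVF-chow mouse 4, 0.41 FPKM), Nr1h4 (NC-chow mouse 1, 6.30 FPKM) and Nr0b2 (FET-chow mouse 2, 0 FPKM).

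The counts over the 10 genes were read against those over all genes. In FET-chow against NC-chow mice, 0 of 10 genes passed the adjusted threshold in limma, where 0.237% of all genes tested did. At an unadjusted p under 0.05, 3 of 10 had lower values (Cyp8b1, Cyp27a1 and Slc10a1), against 10.1% of all genes. The groups did not overlap, with lower values, for 4 of 10, against 17.1% of all genes. The median log2 fold change of the 10 genes was -1.19 and that of all genes tested -0.46. Other liver lists had medians of -1.01 (8 hepatocyte markers), -1.03 (6 tested pericentral genes) and -1.52 (6 tested periportal genes) in the same comparison. On rescaled FPKM, 3 of 10 again had an unadjusted p under 0.05 with lower values, against 9.55% of all genes, and 4 of 10 did not overlap, against 11.5%. The rescaled medians were -0.73 and -0.06, with -0.38, -0.51 and -0.91 for the hepatocyte, pericentral and periportal lists. The unadjusted count was 0 without NC-chow mouse 5 and 0 with NC-chow mouse 1 as the only NC-chow mouse. It was 1 (Cyp8b1) without NC-chow mouse 6 or without FET-chow mouse 4.

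In IVF-chow against NC-chow mice, 0 of 10 genes passed the adjusted threshold in limma, against 0.0592% of all genes. Abcb11 and Nr0b2 had an unadjusted p under 0.05 with lower values, 2 of 10 against 2.86% of all genes. The same 2 genes were those whose groups did not overlap, against 5.46% of all genes. The median log2 fold change was -1.04, and -0.25 over all genes tested, with -0.24, -0.66 and -1.16 for the hepatocyte, pericentral and periportal lists. On rescaled FPKM the 2 genes past an unadjusted p of 0.05 were Cyp27a1 and Slc10a1, against 3.8% of all genes, and 4 of 10 did not overlap, against 11.3%. Without IVF-chow mouse 4, on deposited FPKM, the unadjusted count was 4, namely Baat, Cyp27a1, Nr0b2 and Slc10a1. It was 1 (Abcb11) without IVF-chow mouse 2 and 0 with NC-chow mouse 1 as the only NC-chow mouse. In FET-chow against IVF-chow mice, 0 of 10 passed the adjusted threshold in limma, against 0.0888% of all genes. No gene of the 10 had wholly lower values on deposited FPKM, against 2.56% of all genes. On rescaled FPKM Cyp7a1 and Slc27a5 had an unadjusted p under 0.05 with lower values, against 4.81% of all genes. Both comparisons with NC-chow mice share those 3 mice.

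**Figure D3:**
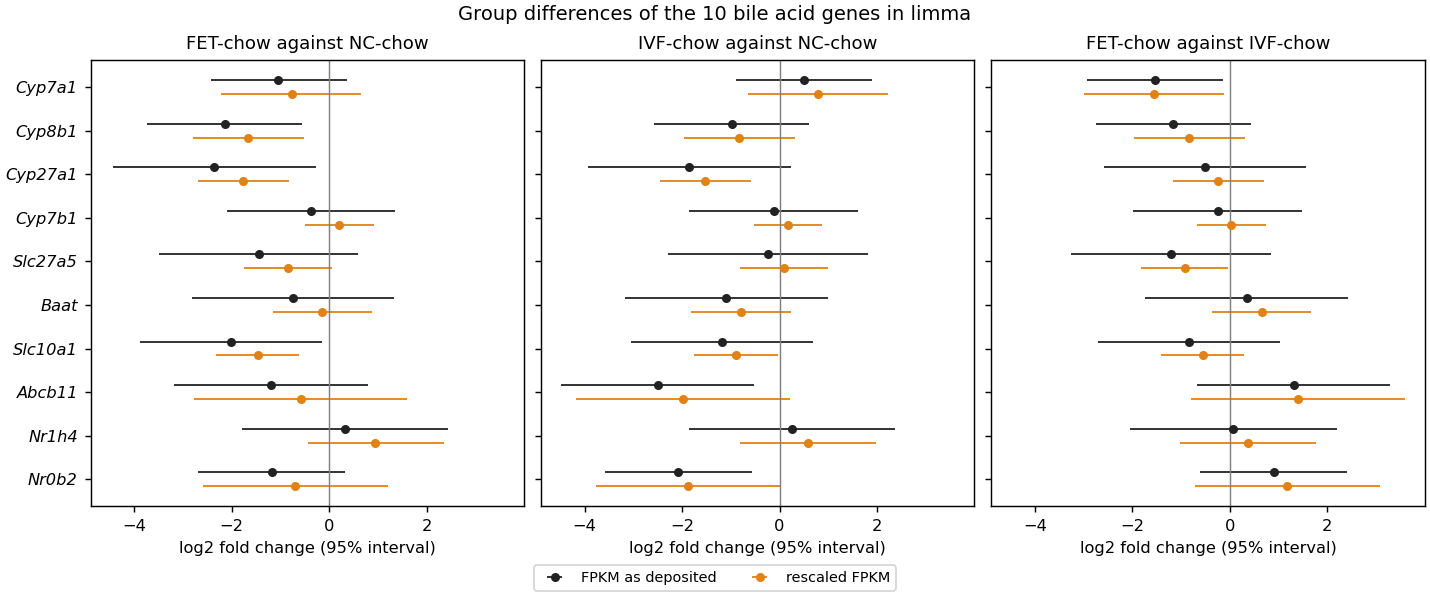
Log2 fold changes of the 10 genes on the x axis with 95% intervals from limma, for FET-chow against NC-chow, IVF-chow against NC-chow and FET-chow against IVF-chow mice. Black points are FPKM as deposited and orange points rescaled FPKM. The intervals of Cyp8b1, Cyp27a1 and Slc10a1 lie below 0 on both scales in the first panel. Their adjusted p-values in limma in that panel are 0.258, 0.351 and 0.376 on deposited and 0.195, 0.116 and 0.145 on rescaled FPKM.

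The balance between paired steps was compared within each mouse, since a ratio of 2 genes in the same library is not moved by the scaling of that library apart from the pseudocount of 1. The differences of log2(FPKM + 1) were tested by a two-sided exact permutation test, for which 0.1 is the smallest p with 3 mice against 3. Cyp7b1 relative to Cyp27a1 was -1.93, -3.17 and -3.33 in NC-chow mice 1, 5 and 6. IVF-chow mice had -0.82, -1.4 and -1.03, and FET-chow mice -1.67, -0.84 and 0.05. Both transfer groups lay wholly above the NC-chow group, by 1.73 for IVF-chow and 1.99 for FET-chow mice (exact p = 0.1, adjusted p = 0.3 over 15 tests for both). The level of Cyp7b1 thus stood closer to that of Cyp27a1 in these mice, and on rescaled FPKM it was Cyp27a1 that had the lower values.

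Cyp8b1 relative to Cyp7a1 stood at 1.47 ± 0.52 (SD, n = 3) in NC-chow, -0.02 ± 1.41 in IVF-chow and 0.36 ± 0.83 in FET-chow mice, and the groups overlapped (exact p = 0.2, adjusted p = 0.429 against NC-chow for both). Baat relative to Slc27a5 was 0.99, 1.05 and 0.5 in FET-chow and -0.68, -1.47 and 0.05 in IVF-chow mice, a difference of 1.55 without overlap (exact p = 0.1, adjusted p = 0.3). NC-chow mice, at 1.16, -0.08 and -0.63, overlapped with both. Abcb11 relative to Slc10a1 was 0.71, 0.46 and 0.68 in NC-chow mice and 0.94, 1.55 and 1.83 in FET-chow mice, a difference of 0.82 without overlap (exact p = 0.1, adjusted p = 0.3). In IVF-chow mice it was 1.05, 1.47 and -4.63, the last being mouse 4. Without that mouse the difference to NC-chow mice turned from -1.32 to 0.64. Nr0b2 relative to Nr1h4 was 0.27, -2.28 and -2.31 in NC-chow and -2.8, -4.14 and -4.36 in IVF-chow mice, a difference of -2.33 without overlap (exact p = 0.1, adjusted p = 0.3). In FET-chow mice it ranged from -5.57 in mouse 2 to -1.36 in mouse 4. Nr0b2 was listed at 0 in FET-chow mouse 2, so the size of that ratio depends on the pseudocount. The same holds for Cyp8b1 relative to Cyp7a1 in FET-chow mouse 4, where Cyp7a1 (0.124 FPKM) rests on about 1 fragment.

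**Figure D4:**
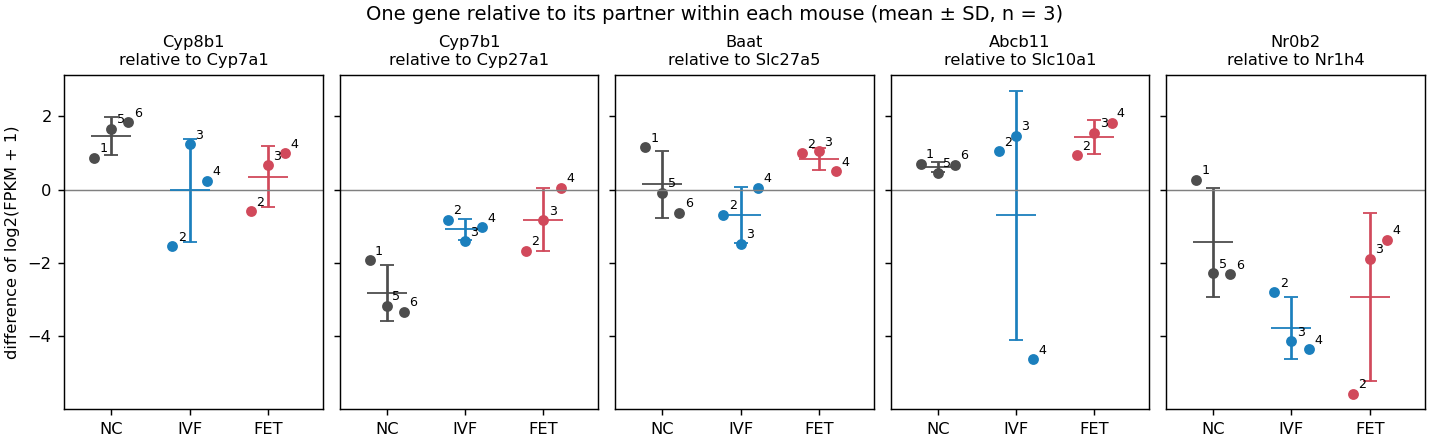
Difference of log2(FPKM + 1) between the 2 genes of a pair within each mouse on the y axis, by group. Each numbered point is 1 mouse, shown with the mean ± SD of 3 mice. For Cyp7b1 relative to Cyp27a1 the NC-chow points (-3.33 to -1.93) lie below all others, and IVF-chow mouse 4 stands apart at -4.63 for Abcb11 relative to Slc10a1.

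A further 40 genes of the bile acid system were taken as 4 lists, of which 32 genes passed the filter on low values (a mean of at least 1 FPKM). Mafg was the only 1 of these to pass the adjusted threshold. It passed the filter only through NC-chow mice, with group means of 11.8 FPKM in NC-chow, 0.539 in IVF-chow and 0.439 in FET-chow mice. Its p-values therefore rest on a gene that entered the test through its high group. Mafg encodes a small Maf protein that is known as an FXR target and a repressor of bile acid synthesis genes. It had 6.27, 13.7 and 15.3 FPKM in NC-chow, 1.47, 0 and 0.149 in IVF-chow and 0, 0 and 1.32 in FET-chow mice. The 0 values of IVF-chow mouse 3 and FET-chow mice 2 and 3 allow up to 0.137, 0.306 and 0.219 FPKM, the level of 3 fragments. Against NC-chow mice, Mafg had a log2 fold change of -3.18 ± 0.61 in FET-chow mice (adjusted p = 0.00476 in limma). That in IVF-chow mice was -3.09 ± 0.61 (adjusted p = 0.0284 in limma). On rescaled FPKM the differences were -2.75 and -2.62, and neither passed the threshold (adjusted p = 0.145 and 0.625 in limma). The alternatives of the processing were applied to Mafg after its values had been seen. It kept the FET-chow call in 5 of 12 (adjusted p of 0.00528 to 0.725 in limma) and lost it without FET-chow mouse 3 (0.15). The IVF-chow call was kept in 1 of 12, without NC-chow mouse 1 (0.0122), and the adjusted p was 0.0547 to 1.0 in the other 11. Each of these log2 fold changes was negative.

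In FET-chow against NC-chow mice, log2 fold changes under 0 were found for 28 of the 32 genes, against 74.3% of all genes tested, with a median of -0.81. On rescaled FPKM it was 21 of 32, against 53.5% of all genes, with a median of -0.29 where that of all genes was -0.06. Groups that did not overlap with lower values numbered 9 of 32, against 17.1% of all genes, and 7 of 32 on rescaled FPKM, against 11.5%. In IVF-chow against NC-chow mice 26 of 32 were negative, against 68.8% of all genes, with a median of -0.61 where that of all genes was -0.25. On rescaled FPKM it was 22 of 32, against 55.7%, with medians of -0.25 and -0.07. Of the 9 ring and side chain enzymes, Hsd3b7, the dehydrogenase that acts on the sterol ring, had the largest difference, with 36.5, 40.3 and 73.2 FPKM in NC-chow mice. It had 6.09, 0 and 21.1 FPKM in IVF-chow and 1.31, 32.4 and 6.17 FPKM in FET-chow mice. Hsd3b7 had a log2 fold change of -2.57 ± 0.99 in FET-chow (adjusted p = 0.283 in limma) against NC-chow mice, with -3.17 ± 0.99 for IVF-chow mice (adjusted p = 0.448 in limma). Amacr, the racemase of the side chain, had 4.12, 9.84 and 13.8 FPKM in NC-chow and 1.24, 2.73 and 4.21 in IVF-chow mice, a log2 fold change of -1.41.

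Among the other transporters, the export pumps Abcc2 and Abcc3 and the uptake carrier Slco1b2 had the largest differences in FET-chow mice. Abcc2 had 10.2, 20.4 and 18.3 FPKM in NC-chow and 3.75, 6.38 and 1.72 in FET-chow mice (log2 fold change -1.87, adjusted p = 0.334 in limma). Abcc3 had 6.69, 8.64 and 11.5 FPKM in NC-chow and 1.05, 3.53 and 1.48 in FET-chow mice (-1.78, adjusted p = 0.298). Slco1b2 had 38.6, 44.9 and 62.2 FPKM in NC-chow and 19.4, 17.3 and 6.07 in FET-chow mice (-1.81, adjusted p = 0.453). All 3 were without overlap on both scales. The sterol exporters Abcg5 and Abcg8 work as a heterodimer. In IVF-chow against NC-chow mice their log2 fold changes were -1.70 and -1.54, with adjusted p-values of 1.0 and 0.927 in limma. Abcg8 had 1.16, 1.55 and 0.353 FPKM in IVF-chow and 5.66, 5.8 and 3.88 in FET-chow mice (log2 fold change 1.63, adjusted p = 1.0), and 2.46, 5.21 and 7.62 in NC-chow mice.

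Between FET-chow and IVF-chow mice the median over the 32 genes was -0.23, and -0.2 over all genes tested. Cyp2c70, which makes the muricholic acids of the mouse, had 14.0, 127 and 192 FPKM in IVF-chow and 76.6, 14.2 and 5.42 in FET-chow mice (log2 fold change -1.87, adjusted p = 1.0 in limma), and 43.3, 86.6 and 68.2 in NC-chow mice. The transcription factors Foxa2 and Onecut1 had log2 fold changes of -1.60 and -1.16 in the same comparison, each with an adjusted p of 1.0 in limma. Foxa2 had 1.37, 6.19 and 8.63 FPKM in IVF-chow and 0.797, 2.29 and 0 in FET-chow mice. Onecut1 had 2.08, 2.72 and 2.43 FPKM in IVF-chow and 0, 2.56 and 0 in FET-chow mice. The 0 values allow up to 0.488 FPKM for Foxa2, and 0.381 and 0.262 for Onecut1, the level of 3 fragments.

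**Figure D5:**
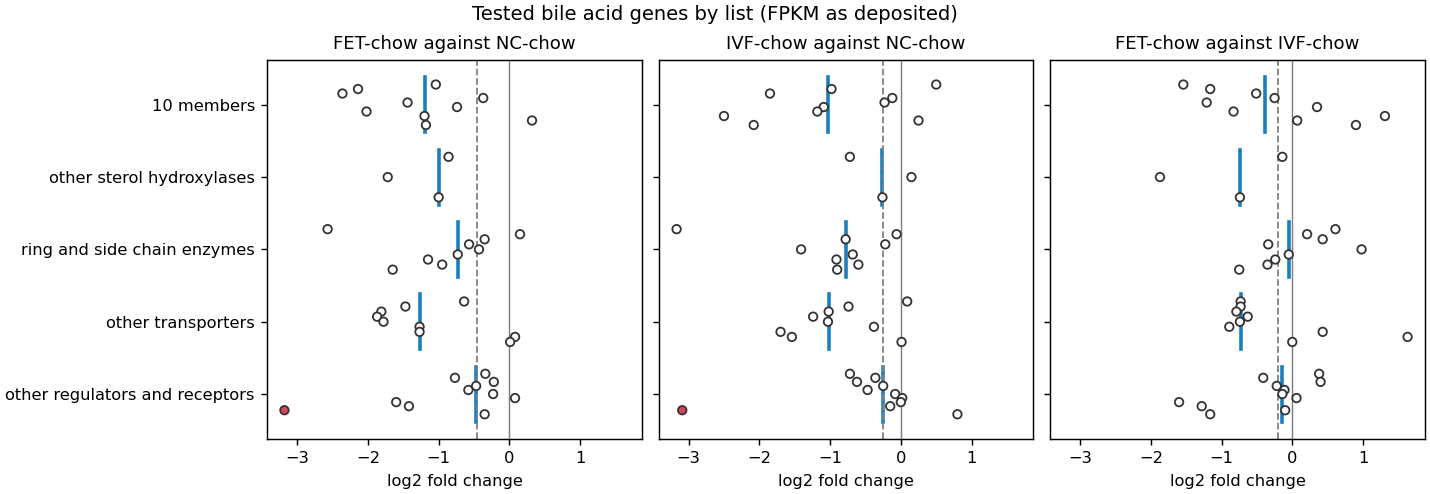
Log2 fold changes on deposited FPKM of the 10 genes and the 32 tested genes of 4 further lists, in the 3 comparisons. Each circle is 1 gene, a filled circle passed the adjusted threshold in limma (Mafg), the blue bar is the median of the list and the dashed line the median of all genes tested (-0.46, -0.25 and -0.2).

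Promoter windows were read from RefSeq sequences of GRCm38.p6, from 250 bases before to 50 bases after an annotated start. Windows were found for 6 of the 10 genes: Cyp8b1, Cyp27a1, Slc10a1 (2 starts), Abcb11, Nr1h4 and Nr0b2. Those of the 4 genes whose FET-chow values lay wholly below the NC-chow values are shown here 5′ to 3′ on the strand of the gene, with matches to the nuclear receptor core AGGTCA, on either strand, in capitals.
Cyp8b1 chr9:121916256-121916555 (minus strand): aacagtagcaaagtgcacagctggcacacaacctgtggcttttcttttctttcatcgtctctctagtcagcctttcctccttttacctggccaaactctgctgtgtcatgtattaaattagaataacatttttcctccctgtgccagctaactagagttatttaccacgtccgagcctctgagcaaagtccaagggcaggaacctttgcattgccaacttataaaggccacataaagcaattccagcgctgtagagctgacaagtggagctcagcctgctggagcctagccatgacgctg
Cyp27a1 chr1:74713285-74713584 (plus strand): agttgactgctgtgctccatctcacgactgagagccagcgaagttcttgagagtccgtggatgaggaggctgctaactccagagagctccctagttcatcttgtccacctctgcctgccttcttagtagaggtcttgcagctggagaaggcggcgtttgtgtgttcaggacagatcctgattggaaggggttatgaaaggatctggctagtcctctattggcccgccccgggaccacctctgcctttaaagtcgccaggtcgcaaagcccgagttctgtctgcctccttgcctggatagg
Slc10a1 chr12:80968656-80968955 (minus strand): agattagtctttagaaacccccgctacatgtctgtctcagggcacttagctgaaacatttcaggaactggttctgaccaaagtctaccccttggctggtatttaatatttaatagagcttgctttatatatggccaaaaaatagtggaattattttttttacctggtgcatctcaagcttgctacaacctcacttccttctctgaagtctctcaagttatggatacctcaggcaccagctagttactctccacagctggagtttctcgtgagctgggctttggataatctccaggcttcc
Slc10a1 chr12:80968030-80968329 (minus strand): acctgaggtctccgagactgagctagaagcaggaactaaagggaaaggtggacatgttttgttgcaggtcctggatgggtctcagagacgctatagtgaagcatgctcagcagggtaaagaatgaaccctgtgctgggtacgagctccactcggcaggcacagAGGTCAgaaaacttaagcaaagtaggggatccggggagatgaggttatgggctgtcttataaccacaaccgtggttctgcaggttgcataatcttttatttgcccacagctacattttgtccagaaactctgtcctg
Abcb11 chr2:69342567-69342866 (minus strand): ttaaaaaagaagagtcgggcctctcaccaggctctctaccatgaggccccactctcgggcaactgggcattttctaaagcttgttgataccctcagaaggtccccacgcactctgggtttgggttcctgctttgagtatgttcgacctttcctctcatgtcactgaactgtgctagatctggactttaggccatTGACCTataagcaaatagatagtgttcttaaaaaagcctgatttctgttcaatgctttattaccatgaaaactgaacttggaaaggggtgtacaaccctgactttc
The core AGGTCA was found in 3 of the 7 windows, against 16.3% of 32851 windows of the same length. In Abcb11 it starts at position -56 from the start site as TGACCT, on the opposite strand. In Slc10a1 it starts at -87 in the window of the inner start, on the strand of the gene, and the window of the outer start holds none. The third was that of Nr1h4, at -214 in the window chr10:89506609-89506908. That window belongs to a start inside the span of the gene, away from its outer end. The extended site AAGGTCA, which contains that core and is bound by Nr5a2 as a monomer, was found in 0 of 7 windows and in 4.72% of all windows. An inverted repeat of the core with 1 base between, AGGTCANTGACCT, the arrangement that FXR binds, was found in 0 of 7 and in 0.00913% of all windows. Only exact matches were searched for. In Abcb11 the letters aggccat stand directly before TGACCT, so the searched repeat is missed there by a single letter. No match says only that these exact letters are not in these windows.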

How the data were processed

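Liver RNA of 9 mice was extracted with TRIzol and sequenced on an Illumina Nova6000 system. The authors deposited FPKM values for 55335 genes by Ensembl identifier. The submitters' processing notes name FastQC 0.11.5, STAR 2.5.3a, StringTie 1.3.1c and DESeq2 1.16.1 without their roles. The build, annotation and strandedness are not given in the sources used here. Groups were taken from the labels, and sex and diet from the study's methods. The GENCODE vM21 annotation of GRCm38 gave symbols and positions for 55154 genes. Coordinates are those of that annotation.

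FPKM are not counts, so no count test was run. Depth was estimated from the steps that whole fragments leave in low values, with a tolerance of 0.5%. It covers counting error only. Fragments per gene were computed from its longest transcript and are approximate. The 6755 genes that averaged 1 FPKM or more over the 9 mice entered limma 3.58.1 as log2(FPKM + 1), in R 4.3.3. A single model held the 3 groups, the variance had a trend on the mean, tests were two-sided, and p-values were Benjamini-Hochberg adjusted over all genes tested with a threshold of 0.05. Fold changes are on this log scale and understate changes of low genes. The limma and depth steps were tested on simulated data. Ratios within a mouse were compared by two-sided exact permutation tests, adjusted over 15 tests.

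Alternatives comprised a pseudocount of 0.1, the unfiltered table, median-ratio scaling, rescaling to nuclear protein-coding genes, a fit of only the groups compared, NC-chow mouse 1 alone, a replicate block and leaving out each mouse. The genes and lists were chosen with earlier results of these data known. All 10 genes are named. Of the 4 further bile acid lists, those past the adjusted threshold and the 5 with the largest difference in each comparison are named, except 1 gene that is not reported here. Of the clock genes the 5 with the largest difference, and of each marker and zonation list the highest, are named.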

Additional observations from a re-analysis of the deposited data

How the results depend on the processing

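No member passed the adjusted threshold under any alternative run, and the numbers of changed genes depended on the processing. In FET-chow against NC-chow mice 16 genes changed; it was 0 with no filter, 0 with only the 2 groups compared, 26 with median-ratio scaling and 6 with NC-chow mouse 1 alone. Leaving out a mouse gave 1 (FET-chow mouse 3) to 83 (NC-chow mouse 1), and 57 without FET-chow mouse 2. In IVF-chow against NC-chow mice 4 changed, 0 with a pseudocount of 0.1, no filter, either scaling or only 2 groups, and 2 with NC-chow mouse 1 alone. Leaving out a mouse gave 0 (IVF-chow mouse 3 or 4) to 24 (NC-chow mouse 1), and 1 without IVF-chow mouse 2. In FET-chow against IVF-chow mice 6 changed, 0 with no filter or only 2 groups. Leaving out a mouse gave 0 (IVF-chow mouse 4) to 10 (IVF-chow mouse 2), with 2 and 3 without FET-chow mice 3 and 4. The replicate block gave 2 genes there. Deviations from the group means had correlations of -0.13, 0.02 and -0.26 between same-numbered mice, and of -0.14 to 0.29 between mice of unlike number. With 3 mice per group this cannot tell whether same-numbered mice share more than a number. Some log2 fold changes of members changed sign. Under median-ratio scaling Cyp7b1 was 0.09 in FET-chow and 0.27 in IVF-chow against NC-chow mice and Slc27a5 0.19 in IVF-chow mice. Rescaled, these were 0.21, 0.18 and 0.09, and Cyp7b1 was 0.03 between FET-chow and IVF-chow mice. Against NC-chow mouse 1 alone, Cyp8b1 was 0.07 and Slc27a5 0.9 in IVF-chow mice. Leaving out a mouse gave -0.75 to 0.88 for Nr1h4 in FET-chow, and in IVF-chow mice -0.82 to 0.97 for Nr1h4, -0.71 to 0.36 for Cyp7b1 and -0.85 to 0.58 for Slc27a5, all against NC-chow mice. For FET-chow against IVF-chow it gave -1.12 to 0.22 for Cyp27a1, -0.73 to 0.35 for Cyp7b1, -0.45 to 1.34 for Baat, -1.57 to 0.02 for Slc10a1 and -0.64 to 0.73 for Nr1h4. Among the ratios it gave -0.39 to 1.0 for Cyp8b1 relative to Cyp7a1 and -0.17 to 0.69 for Cyp7b1 relative to Cyp27a1 between FET-chow and IVF-chow mice, and -2.41 to 0.64 for Abcb11 relative to Slc10a1 in IVF-chow against NC-chow mice. The cause of these shifts was not tested. With 1990000 to 2890000 fragments in the FET-chow libraries, differences of Cyp7a1, Cyp8b1 and Nr0b2 rest on few fragments.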

Other observations

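Bile acid synthesis follows a daily rhythm, and Cyp7a1 in particular is known to be driven by clock output genes such as Dbp. The clock list of 14 genes was therefore described beside the bile acid genes, and 10 of its genes were tested. All 10 had a negative log2 fold change in FET-chow against NC-chow mice, with a median of -1.48, against 74.3% of all genes tested and a median of -0.46. On rescaled FPKM it was 7 of 10 with a median of -1.05, against 53.5% and -0.06. On that scale 3 of the 10 lay wholly lower in FET-chow mice and 1 wholly higher, against 780 and 675 of the 6755 genes tested. Clock genes with a mean under 1 FPKM were not tested and are not part of these counts. In IVF-chow against NC-chow mice 9 of 10 were negative on deposited FPKM with a median of -0.78, against 68.8% and -0.25. Dbp had 12.9, 20.5 and 21.5 FPKM in NC-chow mice 1, 5 and 6, 1.28, 0.552 and 3.26 in IVF-chow and 1.82, 0.611 and 2.89 in FET-chow mice. The difference of Dbp between FET-chow and NC-chow mice was -2.86 ± 0.70 on the log2 scale (adjusted p = 0.0505 in limma). Nfil3, a repressor that competes with Dbp for its sites, had 2.99, 4.87 and 3.77 FPKM in NC-chow mice, and all FET-chow mice had it listed at 0. In IVF-chow mice it had 0.585, 3.29 and 6.08 FPKM, overlapping with NC-chow mice. For FET-chow against NC-chow its adjusted p in limma was 0.0733, and 0.0313 on rescaled FPKM. Nfil3 passed the filter on low values only through NC-chow (mean 3.88 FPKM) and IVF-chow mice (3.32). Its p-values therefore rest on a gene that entered the test through its high groups. The 0 values of FET-chow mice 2, 3 and 4 allow up to 0.744, 0.533 and 0.512 FPKM, the level of 3 fragments. Per2, Nr1d2 and Nr1d1 had log2 fold changes of -2.05, -1.62 and -1.53 with adjusted p-values of 0.242, 0.324 and 0.334 in limma. The hour at which each liver was taken is not given in the sources used here, and the part of the time of day in the bile acid results was not tested.

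Zonation genes were also read, since the classical route is known to be strongest near the central vein. The summed FPKM of 7 pericentral genes, led by Cyp2e1, was 934 to 1250 in NC-chow, 265 to 1080 in IVF-chow and 301 to 860 in FET-chow mice. That of 7 periportal genes, led by Ass1, was 198 to 633, 88.4 to 366 and 127 to 187. The FET-chow sums thus lay below all NC-chow sums in both zones on deposited FPKM. On rescaled FPKM the pericentral sums were 501 to 764 in FET-chow and 537 to 776 in IVF-chow mice, both below the 786 to 1140 of NC-chow mice. A sum is led by the genes with high levels. Of 6 tested pericentral genes, 3 lay wholly lower in FET-chow than in NC-chow mice on that scale, against 11.5% of all genes tested. In IVF-chow mice only 1 of 6 did so, against 11.3%. The rescaled periportal sums overlapped, at 166 to 322 in FET-chow, 182 to 259 in IVF-chow and 242 to 526 in NC-chow mice.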
